A study of Rattus norvegicus with 6 samples.

Results

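The 10 genes described here encode factors that transcribe and copy mitochondrial DNA (mtDNA) or keep its transcripts stable. They were taken by name from the deposited count tables (Tfam, Polrmt, Tfb1m, Tfb2m, Twnk, Polg, Lrpprc, Slirp, Ppargc1a and Nrf1), and all 10 were among the 23139 genes listed in each of 6 libraries. With LPS/siponimod against LPS, the mtDNA-encoded mRNAs fell, 12 of 13 past the test. Of the 10 nuclear genes, Twnk rose, Slirp fell, Polg passed the adjusted p with a fall of less than 1.5-fold, 6 did not pass the test and Ppargc1a was hardly detected. Of all 11977 genes tested, 25.3% passed the adjusted p at 1.5-fold or more, 13.6% higher and 11.7% lower. The libraries were made from polyA-captured RNA of primary microglia from cortices of Wistar rats at postnatal day 1, shaken off mixed cultures after 10 days and sorted with CD11b/c beads. Both conditions received 100 ng/mL lipopolysaccharide (LPS, a glycolipid of Gram-negative bacteria to which microglia respond), either with the solvent DMSO (LPS, n = 3) or with 50 µM siponimod, a sphingosine 1-phosphate receptor modulator (LPS/siponimod, n = 3). Unstimulated cells are not analysed here. Cultures of this kind were taken after 1 or 3 days of stimulation for staining and qPCR, and which time applies to the sequenced RNA is not stated.

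Mitochondria hold their own small circular genome, which encodes a few subunits of the respiratory chain together with the ribosomal and transfer RNAs needed to translate them. Every protein that transcribes, copies, processes or degrades this genome's products comes from nuclear genes. The mitochondrial RNA polymerase (Polrmt) starts transcription together with Tfam, which binds and packs mtDNA, and with Tfb2m, which helps to open the promoter. Both strands are read as long precursors that are cut into single RNAs, and the pair Lrpprc and Slirp then binds the mature mRNAs and protects them. Nrf1 (nuclear respiratory factor) and the coactivator encoded by Ppargc1a act in the nucleus on promoters of such factors.

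Total counts were 39484979, 38301365 and 38080379 in LPS replicates 1, 2 and 3 and 46643859, 43336006 and 38857441 in LPS/siponimod replicates 1, 2 and 3. Microglial markers were present in every library, with 29943, 36455 and 32624 Aif1 counts (the gene of Iba1) with LPS and 8558, 17502 and 5645 with LPS/siponimod. LPS replicate 3 stood apart from the other LPS libraries. Its log2 CPM correlated with LPS replicates 1 and 2 at 0.935 and 0.945 across genes, which are not independent replicates, against 0.983 between those libraries. It also held 515 counts of the oligodendrocyte lineage gene Olig1 and 88 of the astrocyte gene Gfap, where LPS replicates 1 and 2 had 1 and 5 of Olig1 and 1 and 2 of Gfap. LPS/siponimod replicate 3 also held more counts of such genes than the others of its group, with 115 of the neuronal gene Map2 against 1 and 1 and 81 of the oligodendrocyte lineage gene Pdgfra against 1 and 4. Counts of calls without either of these libraries are given beside the results. In bulk RNA, fewer cells of a type and less RNA per cell cannot be told apart.

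The stretches just upstream of the genes were searched for short motifs of regulators that are themselves measured here, among them Nrf1 and GABP. They are shown for 4 of the 6 members that carry the GABP letters. These 4 include Twnk and Slirp, which passed the test, and leave out Polrmt and Polg. GABP is an ETS factor whose subunits are encoded by Gabpa, Gabpb1 and Gabpb2. The sequences are the 250 bases before the annotated start (RefSeq, rat build GRCr8), 5′ to 3′ on the strand of the gene, whereas the counts were made on the earlier build mRatBN7.2. All 10 members matched an entry by symbol. Capitals mark the letters CGGAAG of the GABP motif (or its reverse complement CTTCCG) and, in Tfb2m, the letters GCATGCGC of the core of the Nrf1 motif, searched on both strands.
Tfam (chr20:17355123-17355372, + strand): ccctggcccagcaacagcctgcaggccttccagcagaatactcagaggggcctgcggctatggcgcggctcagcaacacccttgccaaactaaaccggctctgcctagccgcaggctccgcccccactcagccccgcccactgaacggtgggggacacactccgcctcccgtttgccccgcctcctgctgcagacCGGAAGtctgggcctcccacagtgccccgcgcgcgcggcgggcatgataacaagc
Tfb2m (chr13:93828595-93828844, - strand): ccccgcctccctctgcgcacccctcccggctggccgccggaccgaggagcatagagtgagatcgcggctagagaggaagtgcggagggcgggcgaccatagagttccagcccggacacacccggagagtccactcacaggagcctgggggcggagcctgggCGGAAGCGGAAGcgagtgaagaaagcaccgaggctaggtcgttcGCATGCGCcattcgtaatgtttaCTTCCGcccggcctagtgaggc
Twnk (chr1:253817314-253817563, + strand): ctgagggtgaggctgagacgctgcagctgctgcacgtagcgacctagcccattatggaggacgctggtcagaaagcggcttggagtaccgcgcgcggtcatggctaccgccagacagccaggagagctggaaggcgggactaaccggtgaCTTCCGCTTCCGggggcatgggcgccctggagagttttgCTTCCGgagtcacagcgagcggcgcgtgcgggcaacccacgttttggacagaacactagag
Slirp (chr6:112819434-112819683, + strand): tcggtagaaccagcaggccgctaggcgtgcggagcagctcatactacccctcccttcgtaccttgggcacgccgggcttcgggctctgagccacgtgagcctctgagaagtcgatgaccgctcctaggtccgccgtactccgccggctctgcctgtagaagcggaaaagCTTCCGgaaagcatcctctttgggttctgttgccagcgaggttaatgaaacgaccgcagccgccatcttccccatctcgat
CGGAAG stood in 6 of the 10 members (Polrmt, Tfam, Tfb2m, Twnk, Polg and Slirp) and in 13.9% of all 33469 promoter entries of the same length. These entries include genes that were not tested here, and the share among tested genes alone was not computed. Tfb2m and Twnk each held 3 matches, of which 2 directly follow each other. The core GCATGCGC stood in Tfb2m alone among the members, between 45 and 38 bases before the start, and in 2.2% of all entries. The full Nrf1 motif, which is longer by a pair of bases and contains the core, was in 0 of the 10 members and in 0.762% of all entries. The cyclic AMP response element TGACGTCA was found in Ppargc1a alone among the members and in 1.59% of all entries. No marked match overlapped a match of another of these motifs. A match is a run of letters and not a shown binding site, and both the rising Twnk and the falling Slirp carry CGGAAG.

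The products of mitochondrial transcription were read first, as the summed share of transcripts whose names begin with Mt-. The tables list 13 of them, all of them mRNAs of subunits of the respiratory chain or the ATP synthase. Their sum took 1.54%, 1.39% and 1.41% of the total count in LPS replicates 1, 2 and 3 and 0.313%, 0.610% and 0.568% in LPS/siponimod replicates 1, 2 and 3. All LPS/siponimod libraries lay below all LPS libraries, and the lowest share was that of LPS/siponimod replicate 1, the most deeply sequenced library. The 95% Wilson intervals of these shares were at most 0.0077 percentage points wide and reflect counting error alone, and reads that carry no molecular identifier are not independent molecules. The mean share was 1.45% ± 0.0826 with LPS and 0.497% ± 0.161 with LPS/siponimod (SD, n = 3 each), a ratio of 2.91 (two-sided exact permutation test p = 0.10, the smallest that 3 against 3 libraries can give). Within same-numbered libraries, the ratio was 4.93, 2.27 and 2.49. When each of the 6 libraries was left out in turn, the difference between the means lay between -1.01 and -0.857 percentage points.

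**Figure D1:**
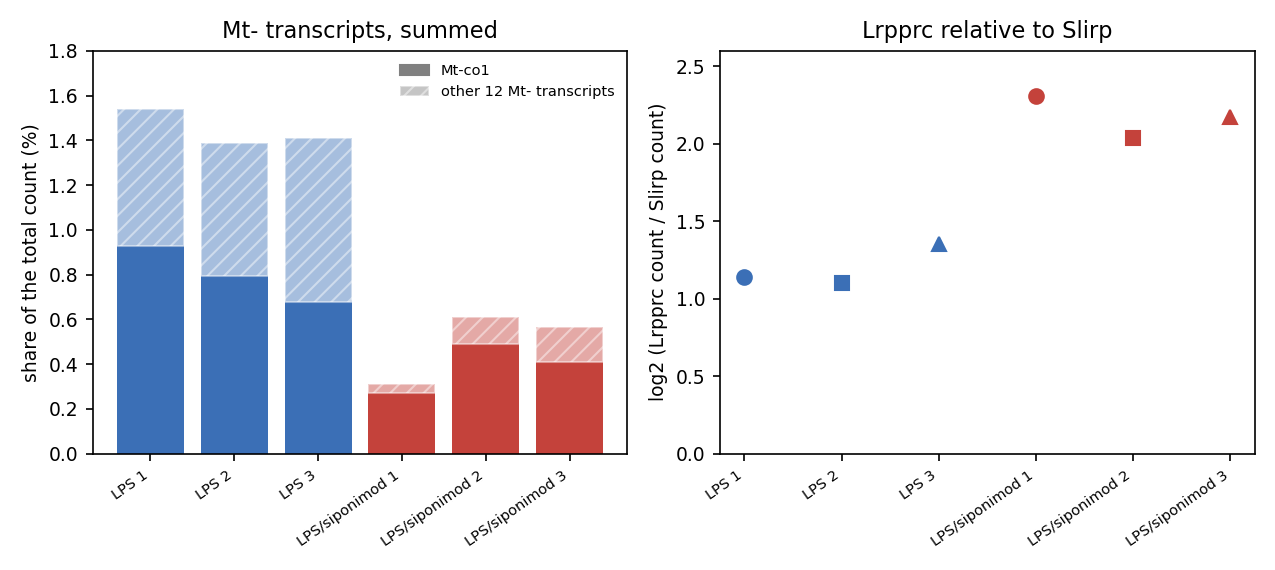
Left, the summed share of the 13 Mt- transcripts in the total count (%, bar height) of each library, split into Mt-co1 (solid) and the 12 others (hatched); the LPS libraries lie between 1.39% and 1.54% and the LPS/siponimod libraries between 0.313% and 0.610%. Right, log2 of the Lrpprc count over the Slirp count in each library (1 point per library); the LPS libraries lie between 1.10 and 1.36 and the LPS/siponimod libraries between 2.04 and 2.31.

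Of the 13 Mt- transcripts, 12 were downregulated differentially expressed genes (DEGs, called by edgeR's quasi-likelihood test over 11977 genes at 1.5-fold or more and an adjusted p no higher than 0.05), and none was upregulated. Of all genes tested, 25.3% were DEGs, 13.6% higher and 11.7% lower, and 28.6% passed the adjusted p alone. At an unadjusted p under 0.05, 13 of the 13 were lower and 0 higher, beside 2604 lower and 2630 higher of all 11977 genes. DESeq2 gave 13 lower and 0 higher DEGs, beside 1924 lower and 1974 higher of all genes. The log2 fold changes (FC) of LPS/siponimod against LPS ranged from -3.92 to -1.12 with a median of -2.80, beside a median of -0.02 over all genes tested. Mt-nd3, which encodes a subunit of respiratory complex I, had 6817, 7721 and 10449 counts in the LPS libraries against 198, 683 and 996 in the LPS/siponimod libraries (quasi-likelihood adjusted p = 0.0112 at a log2 FC of -3.92; SE, the standard error, 0.64). The groups were far apart, and the lowest LPS library held more reads of it than all LPS/siponimod libraries together. The 3 Mt- transcripts with the largest mean CPM over all 6 libraries (count over TMM-scaled library size, not corrected for length) were Mt-co1, Mt-cyb and Mt-co3. With LPS/siponimod alone, Mt-co3 (220 CPM on average) and Mt-nd5 (174) lay above Mt-cyb (143). Mt-cyb, the mtDNA-encoded subunit of complex III, fell from 1211 ± 130.0 to 143 ± 71.7 CPM (SD, n = 3 each), with a log2 FC of -3.08 (SE 0.46, quasi-likelihood adjusted p = 0.00932). For Mt-co3, a cytochrome c oxidase subunit, the log2 FC was -2.36 (SE 0.41, quasi-likelihood adjusted p = 0.0131). The log2 FC was -3.88 for Mt-nd4l, -3.41 for Mt-nd4, -2.80 for Mt-nd1 and -2.72 for Mt-nd2, all of complex I. It was -3.34 for Mt-co2, of cytochrome c oxidase, and -3.21 for Mt-atp8 and -2.42 for Mt-atp6, of the ATP synthase. For these 7 DEGs the quasi-likelihood adjusted p lay between 0.00791 and 0.0293, and for each of them all LPS/siponimod libraries lay below all LPS libraries. When 1 library was left out, the log2 FC lay between -4.36 and -2.92 for Mt-co2 and between -3.17 and -2.04 for Mt-atp6. The highest quasi-likelihood adjusted p in those fits was 0.0689 for Mt-co2 and 0.079 for Mt-atp6.

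Mt-co1, which encodes the core subunit of cytochrome c oxidase, fell least, with 366157, 303469 and 258246 counts in the LPS libraries against 125652, 211814 and 159698 in the LPS/siponimod libraries (log2 FC -1.12, SE 0.29, quasi-likelihood adjusted p = 0.0351). Without the filter on low counts its adjusted p was 0.0561, which left 11 Mt- transcripts as DEGs. Its part of all Mt- counts was larger with LPS/siponimod, at 86.2%, 80.1% and 72.4%, than with LPS, at 60.2%, 57.2% and 48.1% (two-sided exact permutation test p = 0.10, the smallest possible). Since Mt-co1 fell least, a larger part follows from the fold changes, and it is not a separate result. Without Mt-co1, the summed share was 0.646% ± 0.0754 with LPS and 0.107% ± 0.0580 with LPS/siponimod (SD, n = 3 each), a ratio of 6.04. How reads that also match nuclear copies of mtDNA were assigned is not given in the sources used here, so that the level of single Mt- transcripts is uncertain.

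Mt-nd6, the one mRNA encoded on the other strand of mtDNA, had 5257, 4707 and 5728 counts in the LPS libraries against 904, 3401 and 2294 in the LPS/siponimod libraries. The groups did not overlap, and LPS/siponimod replicate 2 lay nearest to the LPS libraries (76.2 against 122 CPM in LPS replicate 2). Its log2 FC was -1.46 (SE 0.47), and it was the one Mt- transcript that was not a DEG (quasi-likelihood adjusted p = 0.0595). With the replicate number as a block it became a DEG, with a log2 FC of -1.66 and an adjusted p of 0.04. Whether counting used the strand is not given in the sources used here, so that reads of Mt-nd6 and of RNA from the opposite strand cannot be told apart. The pairs Mt-atp8 with Mt-atp6 and Mt-nd4l with Mt-nd4 overlap in mtDNA, and reads in the overlap may belong to either gene. The next smallest difference was that of Mt-nd5, another complex I subunit (log2 FC -1.72, quasi-likelihood adjusted p = 0.0354). Leaving out 1 library gave between 5 and 11 downregulated Mt- transcripts. There were 5 without LPS replicate 2, 8 without LPS replicate 1, 10 without LPS/siponimod replicate 1 and 11 without LPS/siponimod replicate 2. Of all genes, 182 of 12613, 644 of 12562, 191 of 12583 and 1462 of 12612 were downregulated DEGs in these fits, in the same order. Without LPS replicate 3 there were 10 such Mt- transcripts, beside 1772 of 12242 genes. Mt-atp6 (quasi-likelihood adjusted p = 0.0506) and Mt-nd5 (0.0539) lost the call there. Without LPS/siponimod replicate 3 there were also 10, beside 273 of 12178 genes, and Mt-co1 and Mt-nd5 lost the call. All 13 log2 FCs remained negative in each of these 6 fits. Since polyA-captured RNA was sequenced, fewer transcripts and transcripts with shorter polyA tails cannot be told apart.

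**Figure D2:**
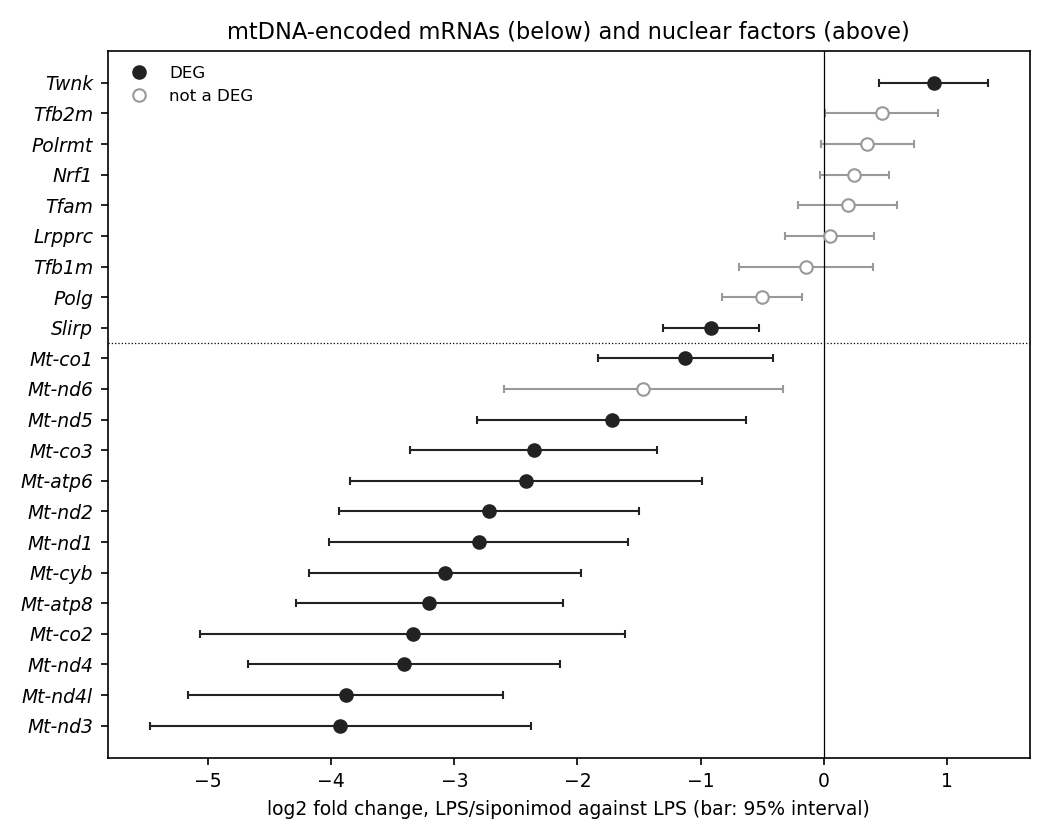
Log2 fold change of LPS/siponimod against LPS (horizontal axis) of the 13 Mt- transcripts (below the dotted line) and of the 9 nuclear factors that were tested (above it), with 95% intervals from edgeR's quasi-likelihood fit over 6 libraries; filled points are DEGs. The Mt- transcripts lie between -3.92 and -1.12 and the nuclear factors between -0.91 and 0.89.

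Of the 10 nuclear factors, 9 passed the filter on low counts and were tested. Of these, Twnk was an upregulated DEG and Slirp a downregulated DEG, which is 2 of 9 beside the 25.3% of all tested genes. Their median log2 FC was 0.19. The 2 groups of libraries did not overlap for 6 of the 9, as was the case for 49.3% of all tested genes (25.3% with LPS/siponimod higher and 24% with it lower). Polrmt, Tfb2m, Twnk and Nrf1 were higher in all LPS/siponimod libraries than in all LPS libraries, and Polg and Slirp were lower.

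**Figure D3:**
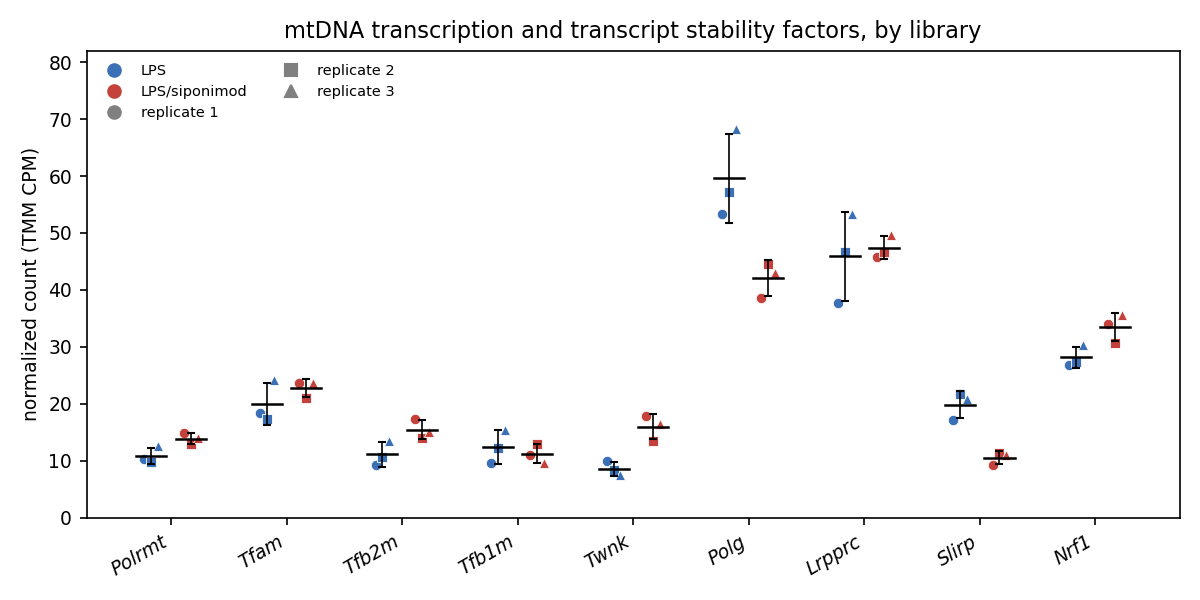
Normalized count (TMM-scaled CPM, vertical axis, starting at 0) of the 9 tested factors in each library; symbols mark the replicate number, horizontal lines the mean and bars the SD of n = 3 libraries. Twnk is higher and Slirp lower in all LPS/siponimod libraries, and the Lrpprc groups overlap; heights are not corrected for length and cannot be compared between genes.

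None of the genes of the transcription machinery passed the test in either direction. Polrmt, the polymerase itself, had 382, 379 and 465 counts in the LPS libraries against 688, 578 and 573 in the LPS/siponimod libraries, and all LPS/siponimod libraries lay above the LPS libraries (10.9 ± 1.43 against 13.9 ± 0.930 CPM, SD, n = 3 each). Its log2 FC of 0.35 had a 95% interval from -0.02 to 0.73 and did not pass the test (quasi-likelihood adjusted p = 0.134). Tfam, which compacts mtDNA into nucleoids and activates its promoters, had 679, 670 and 898 counts in the LPS libraries against 1099, 940 and 974 in the LPS/siponimod libraries. After scaling, the groups overlapped, LPS replicate 3 lying above every LPS/siponimod library (24.2 against 23.6, 21.0 and 23.7 CPM), and the log2 FC was 0.19 (95% interval -0.21 to 0.59, quasi-likelihood adjusted p = 0.404). Without LPS replicate 3 the log2 FC was 0.47 for Polrmt (adjusted p = 0.0521) and 0.36 for Tfam (0.0705), and it lay between 0.12 and 0.24 for Tfam when any other library was left out.

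Tfb2m, the initiation factor, had 342, 414 and 502 counts in the LPS libraries against 803, 627 and 619 in the LPS/siponimod libraries. The groups did not overlap, with LPS/siponimod replicate 1 the highest (11.2 ± 2.17 against 15.5 ± 1.65 CPM, SD, n = 3 each). The log2 FC was 0.47 (SE 0.19, quasi-likelihood adjusted p = 0.108), and without LPS replicate 3 it was 0.63 and Tfb2m was a DEG (adjusted p = 0.036). Tfb1m, a related protein that methylates the RNA of the small mitochondrial ribosomal subunit, had 353, 474 and 574 counts in the LPS libraries against 516, 579 and 397 in the LPS/siponimod libraries. Its groups overlapped widely, and its log2 FC was -0.14 (95% interval -0.69 to 0.40, quasi-likelihood adjusted p = 0.656), turning to 0.05 without LPS replicate 3.

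Of both replication enzymes, Twnk was a DEG and Polg was not. Twnk encodes Twinkle, the helicase that unwinds mtDNA ahead of the replication polymerase. It had 368, 321 and 280 counts in the LPS libraries against 832, 605 and 673 in the LPS/siponimod libraries. The lowest LPS/siponimod library held more reads than the highest LPS library. Twnk rose from 8.60 ± 1.22 to 16.0 ± 2.21 CPM (SD, n = 3 each), with a log2 FC of 0.89 (SE 0.18, quasi-likelihood adjusted p = 0.0188), and was higher in each of the 3 same-numbered pairs. Polg, the catalytic subunit of the mtDNA polymerase, had 1975, 2208 and 2540 counts in the LPS libraries against 1792, 1992 and 1766 in the LPS/siponimod libraries. After scaling to library size, the groups did not overlap (59.6 ± 7.80 against 42.1 ± 3.15 CPM, SD, n = 3 each). Polg fell by 0.50 on the log2 scale (SE 0.13, quasi-likelihood adjusted p = 0.0372), which is less than 1.5-fold, so that it is not counted among the DEGs. Its adjusted p was above 0.05 in 5 of the 6 fits that left out 1 library (0.0522 to 0.140) and 0.0485 without LPS replicate 3, with a log2 FC between -0.56 and -0.39.

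Of the partners of the mRNA stability complex, Slirp fell and Lrpprc did not pass the test. Lrpprc, the large protein that binds mitochondrial mRNAs, had 1398, 1800 and 1980 counts in the LPS libraries against 2130, 2087 and 2037 in the LPS/siponimod libraries. Its scaled values overlapped, with all LPS/siponimod libraries inside the range of the LPS libraries (45.9 ± 7.81 against 47.4 ± 2.00 CPM, SD, n = 3 each). The log2 FC was 0.05 (95% interval -0.31 to 0.41, quasi-likelihood adjusted p = 0.833) and turned to -0.06 without LPS replicate 1. Slirp, the small RNA-binding partner of Lrpprc, had 634, 837 and 774 counts in the LPS libraries against 430, 509 and 451 in the LPS/siponimod libraries, the highest LPS/siponimod library lying below the lowest LPS library. It fell from 19.9 ± 2.45 to 10.5 ± 1.14 CPM (SD, n = 3 each), with a log2 FC of -0.91 (SE 0.16, quasi-likelihood adjusted p = 0.0134), and its differences within the same-numbered pairs were -0.88, -0.93 and -0.92 on the log2 scale. The ratio of both genes within a library, a comparison chosen after their values were seen, does not depend on the scaling. On the log2 scale it was 1.14, 1.10 and 1.36 in the LPS libraries against 2.31, 2.04 and 2.18 in the LPS/siponimod libraries (two-sided exact permutation test p = 0.10, the smallest possible).

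The calls of Twnk and Slirp did not hold in every fit that left out 1 library. Both were lost without LPS replicate 2 (adjusted p = 0.0832 for Twnk and 0.0636 for Slirp), without LPS/siponimod replicate 1 (0.0816 and 0.0604) and without LPS/siponimod replicate 3 (0.0659 and 0.0507), and both held without each of the other 3. Over all 6 fits the log2 FC of Twnk lay between 0.79 and 1.02 and that of Slirp between -0.996 and -0.83. In each of the 3 fits without a call, 1 of the 9 factors was higher and 2 were lower at an unadjusted p under 0.05. Of all genes, 2058 of 12613, 1953 of 12583 and 2151 of 12178 were then higher and 1803, 1720 and 1915 lower. In these fits the DEGs of all genes fell in number as well, from 1633 higher and 1403 lower to between 469 and 762 higher and between 182 and 273 lower.

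Nrf1, a transcription factor for nuclear genes of mitochondrial proteins, had 994, 1057 and 1127 counts in the LPS libraries against 1578, 1373 and 1463 in the LPS/siponimod libraries. All LPS/siponimod libraries lay above the LPS libraries, by a narrow margin after scaling (28.2 ± 1.87 against 33.5 ± 2.50 CPM, SD, n = 3 each), and the log2 FC of 0.25 (95% interval -0.03 to 0.53) did not pass the test (quasi-likelihood adjusted p = 0.152). Ppargc1a had 0, 0 and 0 counts in the LPS libraries against 2, 0 and 1 in the LPS/siponimod libraries. All 6 values lie at or under the floor of 3 counts, and no fold is given. Nfe2l1 encodes another transcription factor that shares the short name NRF1 and must not be mistaken for the member. It rose from 243 ± 10.8 to 538 ± 50.8 CPM (SD, n = 3 each), with a log2 FC of 1.14 (SE 0.14, quasi-likelihood adjusted p = 0.00692).

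For context, 63 other genes of mtDNA expression were taken from 8 lists, of which 59 were found under their symbols and 58 were tested. Of these, 9 were upregulated and 6 downregulated DEGs and 43 were not DEGs, with 32 higher and 26 lower and a median log2 FC of 0.05. The share of DEGs, 15 of 58, lies close to the 25.3% of all tested genes. Lonp1, the matrix protease that degrades Tfam among other proteins, showed the largest rise, with 3428, 3037 and 4162 counts in the LPS libraries against 21152, 13814 and 18159 in the LPS/siponimod libraries (94.4 ± 16.7 against 402 ± 80.8 CPM, SD, n = 3 each; log2 FC 2.09, SE 0.22, quasi-likelihood adjusted p = 0.00582). No library of either group came near the other group. The other 3 proteases of the list (Clpp, Clpx and Afg3l2) were not DEGs.

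Among 10 genes of replication and maintenance, Ssbp1, the mitochondrial single-strand binding protein that works with Twinkle, had a log2 FC of 0.85 (SE 0.17, quasi-likelihood adjusted p = 0.017) and Top1mt, the mitochondrial topoisomerase, one of 0.82 (SE 0.24, adjusted p = 0.0487). The call of Top1mt was lost with the likelihood ratio test (adjusted p = 0.0609), without the filter on low counts (0.0765) and in 5 of the 6 fits that left out 1 library (0.0636 to 0.180). Primpol, a primase that restarts stalled replication, fell (log2 FC -1.42, SE 0.26, quasi-likelihood adjusted p = 0.0142). For Polg2, the gene of the accessory polymerase subunit, the log2 FC was 0.80 (quasi-likelihood adjusted p = 0.0567). Polg2 was an upregulated DEG with DESeq2 (adjusted p = 0.0129) and with the replicate number as a block (0.0491). For elongation and termination of transcription, 6 genes were tested, and none was a DEG by the quasi-likelihood test over all 6 libraries. At an unadjusted p under 0.05, only the elongation factor gene Tefm was lower and none was higher, and DESeq2 called Tefm alone.

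The counts of each list below rest on few genes and stand beside 13.6% upregulated and 11.7% downregulated DEGs of all tested genes. Of 9 genes of the mitochondrial RNA granule and of RNA stability, Fastkd1 (log2 FC 1.40, SE 0.18, quasi-likelihood adjusted p = 0.00733) and Fastk (0.70, SE 0.12, 0.0131), members of a family of RNA-binding proteins of the matrix, were upregulated, and 7 were not DEGs. Among 8 genes of RNA processing, Elac2, which cuts transfer RNAs from the precursor at their 3′ end, fell (log2 FC -0.67, SE 0.16, quasi-likelihood adjusted p = 0.0268), and the polyA polymerase gene Mtpap gave a value of -0.17 (quasi-likelihood adjusted p = 0.511). Of the 5 RNA decay genes, the exonuclease gene Pnpt1 fell by 0.81 (SE 0.22, quasi-likelihood adjusted p = 0.039; 0.0534 without the filter on low counts). Of the 5 tested genes that supply mitochondria with nucleotides, 3 fell: Slc25a36, a carrier of pyrimidine nucleotides (log2 FC -0.68, quasi-likelihood adjusted p = 0.0307), the ribonucleotide reductase subunit gene Rrm2b (-0.77, 0.035) and the thymidine kinase gene Tk2 (-0.65, 0.0351). Of the 11 tested nuclear regulators, 4 were upregulated and 7 were not DEGs. Sirt1, a deacetylase (log2 FC 1.45, quasi-likelihood adjusted p = 0.00724), both beta subunit genes of GABP, Gabpb2 (0.71, 0.0205) and Gabpb1 (1.12, 0.0248), and the corepressor gene Ncor1 (0.61, 0.0209) were higher, while the DNA-binding subunit gene Gabpa gave a value of 0.00 (quasi-likelihood adjusted p = 0.987). Esrra, the gene of an estrogen-related receptor, gave a value of -0.68 (quasi-likelihood adjusted p = 0.0707) and was a downregulated DEG with DESeq2 (adjusted p = 0.0311) and with the likelihood ratio test (0.0431). Without LPS replicate 2, 3 of the 58 were upregulated and 0 downregulated DEGs, without LPS/siponimod replicate 1 also 3 and 0, and without LPS/siponimod replicate 3 they were 4 (Lonp1, Sirt1, Fastkd1 and Fastk) and 0. In these 3 fits 7, 6 and 6 of the 58 were lower at an unadjusted p under 0.05 and 12, 10 and 10 higher, beside the counts of all genes given above for these fits. Without LPS replicate 1, 6 were up- and 2 downregulated, and without LPS replicate 3 they were 9 and 5. Of all genes, 1099 were up- and 644 downregulated without LPS replicate 1, and 1941 and 1772 without LPS replicate 3. Without LPS replicate 3, Mterf3 (adjusted p = 0.0251) and Pprc1 (0.016) became upregulated and Ppargc1b (0.0318) downregulated DEGs, and the calls of Top1mt, Tk2 (0.0531), Rrm2b (0.055) and Ncor1 (under 1.5-fold) were lost.

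**Figure D4:**
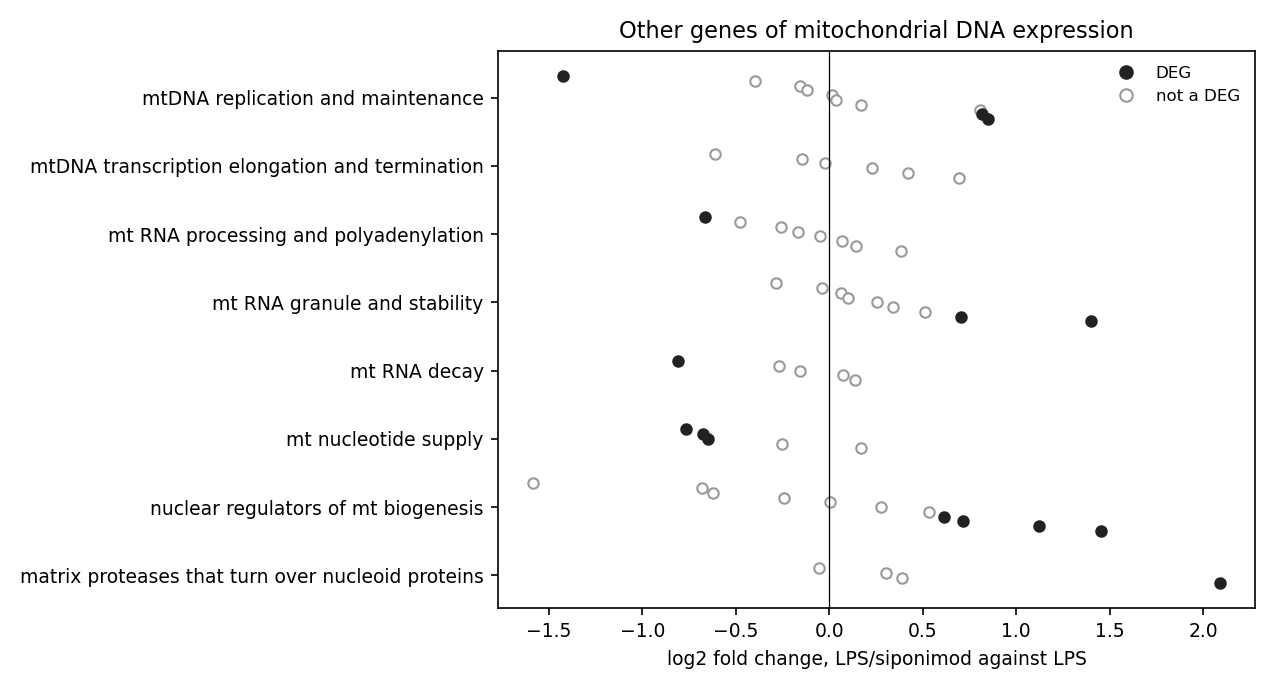
Log2 fold change of LPS/siponimod against LPS (horizontal axis) of the 58 tested genes of 8 lists of mitochondrial DNA expression (rows; mt, mitochondrial), 1 point per gene, with filled points for DEGs (vertical offsets within a row only separate the points). DEGs lie on both sides of 0, and Lonp1 lies farthest to the right at 2.09.

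Markers of cell types are given as levels, since the share of DEGs among them (3 of 11 for microglia, 1 of 3 for the oligodendrocyte lineage, 1 of 2 for neurons, 1 of 5 for fibroblasts and pericytes and 1 of 3 for endothelium, of those tested) is read beside the 25.3% of all tested genes. Of 11 microglia and macrophage markers listed (of 12 looked for), 3 were downregulated DEGs (Aif1, Itgam and Cx3cr1) and 8 were not DEGs. Their summed level was 8666, 7068 and 4659 CPM with LPS and 3883, 4715 and 2916 CPM with LPS/siponimod, with Csf1r the highest with LPS (2106 CPM on average) and Cd68 with LPS/siponimod (1076 CPM). Astrocyte markers summed to 42.5, 21.1 and 24.3 CPM with LPS and 27.6, 26.8 and 59.1 CPM with LPS/siponimod, with Slc1a3 the highest in both conditions, and Gfap had 0, 0 and 1 counts with LPS/siponimod. Oligodendrocyte lineage markers summed to 5.34, 5.37 and 36.0 CPM and to 11.4, 10.3 and 22.6 CPM, with Olig1 the highest with LPS (4.67 CPM on average, nearly all from replicate 3) and Mbp, which was upregulated, with LPS/siponimod (11.6 CPM). Olig2, Pdgfra and Cspg4 had lower means with LPS/siponimod, and Mog had at most 1 count in any library. Neuronal markers summed to 1.67, 1.06 and 11.3 CPM and to 6.39, 9.27 and 17.04 CPM, with Tubb3 the highest in both conditions and Snap25 upregulated. Map2 and Syt1 had lower means with LPS/siponimod, and Rbfox3 and Stmn2 higher ones, none of which passed the filter on low counts. Markers of fibroblasts and pericytes summed to 6.04, 4.75 and 3.98 CPM and to 11.9, 4.64 and 8.65 CPM, with Col1a1 the highest with LPS (2.81 CPM on average) and Dcn, the one DEG (upregulated) of 5 tested, with LPS/siponimod (5.08 CPM). Of the other 4, Col1a1 (log2 FC -0.89), Col3a1 (-0.67) and Pdgfrb (-0.65) were lower and Col1a2 (0.26) higher, none past the test. Endothelial markers, of which 3 of 4 were listed, summed to 165, 213 and 93.0 CPM and to 38.2, 81.8 and 26.2 CPM, with Cdh5 the highest in both conditions and Flt1 downregulated. The part of these markers in the values of the mtDNA factors and of the Mt- transcripts was not tested.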

How the data were processed

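RNA of 6 rat microglia libraries (3 per condition) was sequenced after polyA capture. The authors demultiplexed reads with bcl2fastq 2.20.0.422 and mapped and counted them per gene with CLC Genomics Workbench on mRatBN7.2. The deposited values are raw counts, 1 table per library, and strand use and the handling of reads that match several places are not given in the sources used here. A blank row in 1 table, which held no counts, was left out. Genes with enough counts (edgeR's filterByExpr) were scaled by TMM and tested with edgeR 4.0.16 (quasi-likelihood, R 4.3.3), with Benjamini-Hochberg adjustment over all 11977 genes. A DEG had an adjusted p of at most 0.05 and at least 1.5-fold change. CPM are TMM-scaled, and errors are SDs over libraries. Libraries held 38080379 counts or more, and for genes with few counts the counting error can be as large as the spread between libraries. Alternatives were RLE scaling, DESeq2 1.42.0, a likelihood ratio test, no filter, a library size of nuclear genes only, the replicate number as a block and leaving out each library. The scripts were tested on simulated data, which do not measure the power of this fit. A gene that did not pass the test may still differ.

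The libraries are biological replicates by the study's methods. Same-numbered libraries deviated together from their group means (correlations 0.42, 0.545 and 0.611, and -0.534 to 0.086 for different numbers). Deviations cancel out over the libraries of a group, which forces part of the negative values. A pairing by number is therefore a hint from the data and not from the labels. The main fit held the condition alone and paired no libraries. The numbers were used only for the blocked fit, the comparisons within same-numbered libraries and the sign-flip test.

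The members and lists were chosen with earlier results of these data known. All members were described, all Mt- transcripts that were DEGs, and up to 3 DEGs per list and direction with the smallest adjusted p. Gabpb1, Gabpa, Esrra, Polg2, Tefm, Mterf3, Pprc1, Ppargc1b, Mtpap and Mt-nd6 were named after their values were seen.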

Additional observations from a re-analysis of the deposited data

How the results depend on the processing

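RLE scaling, DESeq2, the likelihood ratio test, no filter on low counts and a library size of nuclear genes only each kept Twnk higher and Slirp lower as the only DEGs among the factors, with adjusted p from 0.000188 to 0.0268 for Twnk and from 1.43e-05 to 0.0171 for Slirp over these and the blocked fit. Without a minimum fold, 2 factors were lower, Polg being added. Without Mt-co1, the difference in the summed Mt- share was -0.539 percentage points in place of -0.949.

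Leaving out 1 library gave 469 to 1941 higher and 182 to 1772 lower DEGs among all genes, 0 to 2 higher and 0 to 1 lower among the factors, 3 to 9 higher and 0 to 6 lower among the 58 other genes, and 0 to 0 higher and 5 to 11 lower Mt- transcripts. The Mt- share difference lay between -1.01 and -0.857 percentage points. The log2 fold change of Lrpprc ranged from -0.059 (without LPS replicate 1) to 0.17 and that of Tfb1m from -0.28 to 0.046 (without LPS replicate 3), none past the test. The cause was not tested.

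With the replicate number as a block, 2114 genes were higher and 1960 lower, with 1 higher and 1 lower among the factors, 10 and 8 among the 58 other genes, and 13 lower Mt- transcripts. Polg2 was then an upregulated DEG (edgeR adjusted p = 0.0491) and Ppargc1b (0.0309) and Nrip1 (0.0152) were downregulated DEGs. The paired difference in Mt- share was -0.949 percentage points (exact sign-flip permutation test p = 0.25, the smallest that 3 pairs can give).

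Ppargc1a was not measurable at this depth.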
